A study of Mus musculus with 4 samples.

Results

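The genes of natriuretic peptide signalling were followed through smooth muscle cells (SMCs) of 3 segments of the mouse thoracic aorta. The group holds 9 of the 32287 features counted: the peptide genes Nppa, Nppb and Nppc, the protease gene Corin, the receptor genes Npr1, Npr2 and Npr3, and Prkg1 and Pde5a, which act on the second messenger cGMP or on its signal. Corin was selected on its measured difference between the segments in these data, and the other 8 for their place in the pathway with earlier results known, so the levels below are a description. Cells entered with 1000 or more detected genes and 10% or less of their unique molecular identifiers (UMIs) from mitochondrial genes, and were read by library and, in the root, by reporter.

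Natriuretic peptides are hormones that relax vessels and promote salt loss. The heart makes the precursors of ANP (Nppa) and BNP (Nppb), and corin, a serine protease anchored in the membrane, cuts pro-ANP to its active form, while CNP (Nppc) acts mostly on neighbouring cells. The receptors NPR-A (Npr1, for ANP and BNP) and NPR-B (Npr2, for CNP) are guanylyl cyclases, and NPR-C (Npr3) mainly removes the peptides. In SMCs the cGMP made by these cyclases activates protein kinase G (Prkg1) and so favours relaxation, and PDE5 (Pde5a) degrades it.

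Cells were taken from mice 12 weeks old that carried Wnt1-Cre2, a driver active in the neural crest, and the mT/mG reporter, in which cells with a Cre history make membrane eGFP and the others membrane tdTomato. Viable single cells were sorted for ITGA8, an integrin on SMCs, and for GFP or RFP, and run as 4 libraries of droplet 3′ RNA counts. One came from the aortic root (Root, with no reporter colour in its title), a pair from the ascending aorta (Asc-GFP of GFP cells, Asc-RFP of RFP cells) and the last from GFP cells of the arch (Arch-GFP). Each group was 1 library, from a number of animals that the labels do not give, and nothing below could be checked against replicates. Root held both reporters and was read as Root-eGFP (576 cells with at least 8 eGFP and at most 1 tdTomato UMI) and Root-tdTomato (1832 cells with at least 2 tdTomato and under 8 eGFP UMIs), with 552 of its 2960 cells in neither. This gave 5 populations, and all 5 carry the driver and the reporter.

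The 4 libraries kept between 2960 and 8031 cells and between 39691658 and 100987052 UMIs, with medians of 12628 to 13605 UMIs per cell. All 12 SMC markers were detected in every population. Any 2 libraries shared between 4 and 18 cell barcodes. Cells of other types were uneven: cells with macrophage markers numbered 103 in Root and 61 in Asc-RFP but 1 each in Asc-GFP and Arch-GFP, and cells with endothelial markers numbered 42 in Root, 14 in Asc-RFP and at most 2 in either other library. By Xist and Y-linked UMIs, the female share of sexed cells was 87.8% for Root and 29.1% for Arch-GFP, with Asc-GFP at 70.1% and Asc-RFP at 54.4%. Levels are UMIs of the gene per 1000000 UMIs of the population (CPM), with exact Poisson 95% intervals that cover counting error only, as do all intervals below. They are not scaled to gene length and are compared within a gene.

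Corin and Npr1 differed most among the members along the aorta, in opposite directions, and their promoters are shown for that reason. Corin lies on chromosome 5 (mm10 72300025 to 72504473, minus strand) and Npr1 on chromosome 3 (90450591 to 90465866, minus strand), both protein-coding. The RefSeq windows on GRCm38.p6 run from 250 bases before to 50 bases after the start of transcription, at chr5:72504491-72504790 for Corin and chr3:90465817-90466116 for Npr1, both on the minus strand, and capitals mark motif matches.
Corin: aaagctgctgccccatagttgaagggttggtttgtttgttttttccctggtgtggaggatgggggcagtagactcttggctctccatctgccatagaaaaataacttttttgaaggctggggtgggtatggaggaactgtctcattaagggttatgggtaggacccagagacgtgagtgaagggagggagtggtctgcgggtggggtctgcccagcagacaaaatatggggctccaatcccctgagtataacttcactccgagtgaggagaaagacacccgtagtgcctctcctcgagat
Npr1: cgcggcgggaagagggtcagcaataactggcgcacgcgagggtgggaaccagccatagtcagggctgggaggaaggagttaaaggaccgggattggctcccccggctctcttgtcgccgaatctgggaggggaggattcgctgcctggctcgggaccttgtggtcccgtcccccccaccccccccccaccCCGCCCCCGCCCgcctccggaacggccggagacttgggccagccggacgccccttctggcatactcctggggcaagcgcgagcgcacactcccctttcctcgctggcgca
The Corin window is 51.7% G or C and the Npr1 window 69.7%. Both strands were searched for 8 motifs. The GATA factor motif was searched as AGATAA, found in 11.2% of the 32851 RefSeq promoters of this length, and also as TGATAA, found in 9.05%. The TATA box was searched as TATAAA, found in 13.6%, and the AP-1 motif as TGANTCA, found in 7.81%. The GC box was searched as GGGCGG, found in 35.7%, and an E-box as CACGTG, found in 7.15%. The CArG box (1.63%) and the MEF2 box (0.557%) were searched by their usual patterns. Corin's window held none of the 8, as did those of Npr2 and Npr3, and Npr1's held the GC box 2 times on the opposite strand. Nppb's window held both forms of the GATA motif and the TATA box, Nppa's the second form and the TATA box, and Nppc's the TATA box and the GC box. Of the 2 Prkg1 windows, the first held the first GATA form and the GC box and the second the GC box, and Pde5a's held the GC box. No measurement of binding or open chromatin was used here.

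The peptides themselves were nearly or fully undetected in these cells. Nppa, the ANP precursor, gave 5 UMIs in Root, 1 in Asc-GFP and 0 elsewhere. Nppb, the BNP precursor, gave 0 UMIs in all 4 libraries, where 3 UMIs would be 0.0756 CPM in Root and 0.0297 CPM in Arch-GFP. Nppc, the CNP precursor, gave 13 UMIs in 7 cells of Root and 2 to 4 UMIs in each other library. Of the 13 in Root, 3 lay in the 42 cells with endothelial markers. No order between populations was read from these counts.

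Corin, the pro-ANP protease, was at 46.5 CPM (43.9 to 49.2) in Root-tdTomato and 41.3 CPM (36.9 to 46.1) in Root-eGFP. It stood at 2.17 CPM (1.79 to 2.60) in Asc-RFP, 1.31 CPM (1.07 to 1.58) in Asc-GFP and 0.198 CPM (0.121 to 0.306) in Arch-GFP. The 2 root populations overlapped in their intervals, and over all cells every further step down in this order was larger than counting error. The UMIs behind these levels were 1196, 317, 117, 110 and 20. In female cells alone the log2 ratio of Asc-GFP over Asc-RFP was within counting error, at -0.11 (-0.65 to 0.46). In male cells alone it was -1.80 (-2.69 to -0.98). Corin separated root from ascending aorta within each reporter colour. Root-tdTomato exceeded Asc-RFP 21.4-fold (17.7 to 26.2), a log2 ratio of 4.42, the 4th highest of 9888 genes that reached 5 CPM in either population. Root-eGFP exceeded Asc-GFP 31.6-fold (25.4 to 39.6), a log2 ratio of 4.98 and the 5th highest of 9745 genes. Corin was selected on this difference and reached 5 CPM only in the root, so a high rank was built in and is no support. Between the colours within the root the log2 ratio, eGFP over tdTomato, was -0.17 (-0.35 to 0.01). Arch-GFP had less than Asc-GFP by a log2 ratio of -2.72 (-3.49 to -2.03), at levels under 5 CPM on both sides. The 61 macrophage-marker cells of Asc-RFP, which should lack the gene, held 1 Corin UMI, 2.77 CPM (0.0701 to 15.4). Whether the level in Asc-RFP exceeds that background could not be told from these 61 cells at this depth.

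**Figure D1:**
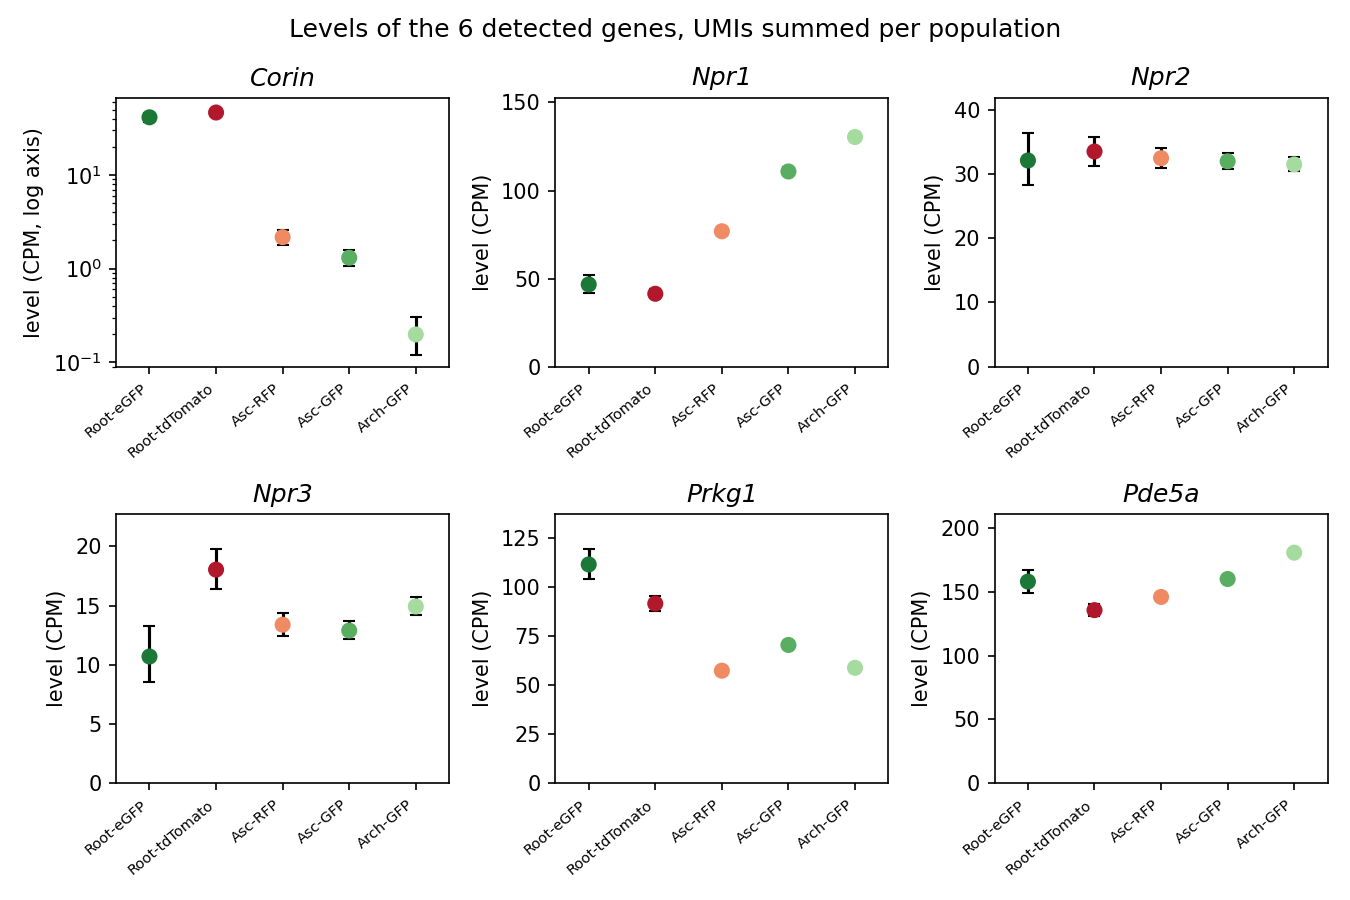
Levels of the 6 members above 5 CPM in at least 1 of the 5 populations, in CPM of summed UMIs with exact Poisson 95% intervals (counting error only), with a log axis for Corin and axes from 0 for the others. Corin falls from 46.5 CPM in Root-tdTomato to 0.198 CPM in Arch-GFP, Npr1 goes from 41.4 to 130 CPM between the same populations, and Npr2 stays between 31.5 and 33.5 CPM.

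Corin UMIs were concentrated in a minority of root cells. In Root, 575 of 2960 cells (19.4%) held a Corin UMI: 227 held 1, 108 held 2 and 240 held 3 or more, up to 23. In Asc-GFP 80 of 6408 cells (1.25%) held one, 7 of them 3 or more, up to 4. In Asc-RFP 82 of 4030 (2.03%) did, 6 of them 3 or more, up to 8, and in Arch-GFP 18 of 8031 (0.224%), with at most 2 in a cell. The root thus differed not only in how many cells held a UMI but also in how many each held. To set depths equal, each cell was thinned at random to 4000 UMIs, which left out 35 cells of Root-tdTomato, 5 of Root-eGFP, 415 of Asc-RFP, 283 of Asc-GFP and 787 of Arch-GFP. The shares were then 10.9% (9.50 to 12.4) in Root-tdTomato, 9.11% (6.88 to 11.8) in Root-eGFP, 0.747% in Asc-RFP, 0.327% in Asc-GFP and 0.0966% in Arch-GFP. The variance of thinned Corin UMIs over their mean was 2.48 in Root-tdTomato and 2.81 in Root-eGFP, against 1.14 and 1.47 for Npr1 in the same cells, where 1 is what even sampling gives. Corin UMIs also turned up in cells that should lack it. The 103 macrophage-marker cells of Root (median 8440 UMIs) held Corin at 14.9 CPM (8.53 to 24.2), below the 48.7 CPM (46.6 to 50.9) of all Root cells. A Corin UMI lay in 10.7% of them, or 4.05% (0.844 to 11.4) after thinning, an interval that includes the 11.2% of all thinned Root cells. The part of free RNA in the cells with a single UMI was not tested.

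**Figure D2:**
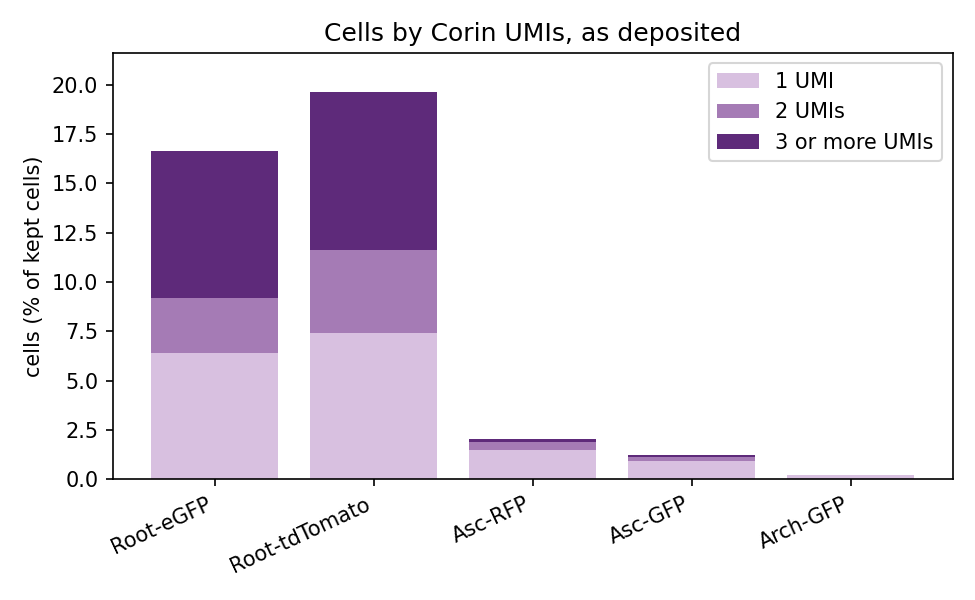
Share of kept cells, in percent, with 1, 2 and 3 or more Corin UMIs at the deposited depth, by population. The 2 root populations reach 16.7% and 19.7% with a UMI and 7.47% and 8.02% with 3 or more, and Asc-RFP, Asc-GFP and Arch-GFP stay at or under 2.03%.

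Cardiomyocytes also make corin, so their 12 markers were read beside it. Summed, they were at 1210 CPM in Root-tdTomato, 494 in Root-eGFP, 460 in Asc-RFP, 164 in Asc-GFP and 108 in Arch-GFP, an order close to that of Corin. In Root-tdTomato most of this sum was Tnnt2, the cardiac troponin T gene (997 CPM), followed by Pln, the gene of phospholamban (106 CPM). In Arch-GFP the leading gene was Ryr2, a calcium release channel (47.2 CPM), with Tnnt2 at 19.2 and Pln at 12.9 CPM. The other markers were lower in Root-tdTomato: Ryr2 was at 63.2 CPM, Myl4 at 19.05, Actn2 at 13.5, Ttn at 4.39 and Actc1 at 3.93. The myosin heavy chain gene Myh6 was at 0.777 CPM there, Myl2 at 0.233, Myl3 at 0.117, Myl7 at 0.233 and Tnni3 at 1.83, and Nppa was as given above. Root-tdTomato was then split by Corin after thinning, with macrophage- and endothelial-marker cells left out. The 12 markers together were at 2385 CPM in cells with a Corin UMI and 1103 CPM in those without. Tnnt2 was at 2045 and 890.0 CPM, Pln at 218 and 103 and Ttn at 8.97 and 4.40, while Actn2 was at 2.56 and 15.0. Myh6 had 5 and 2 UMIs, 6.41 and 0.326 CPM, and Myl2, Myl3, Myl7 and Tnni3 had 0 UMIs in the cells with Corin. In Root-eGFP, with no cells of other types left out, the sum was 702 CPM with Corin and 461 without. The part of these markers in the level of Corin was not tested. Again without macrophage- and endothelial-marker cells, Root-tdTomato cells with Corin held 13560 UMIs of Acta2 and 4079 of Myh11, the smooth muscle actin and myosin genes. The 12 SMC markers together were at 54680 CPM in these cells and 54141 CPM in those without.

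The genes most like Corin over the 5 populations, by the root mean square difference of centred log2(CPM + 1) profiles among 10085 genes, were Pgam2 (0.54), Gata4 (0.83), Rgs17 (0.89), Tmem215 (0.91) and Thbs1 (1.01). Pgam2, a muscle phosphoglycerate mutase, went from 22.2 CPM in Root-eGFP and 15.1 in Root-tdTomato to 1.72 in Asc-RFP, 0.155 in Asc-GFP and 0.119 in Arch-GFP. Gata4, a transcription factor of the developing heart, went from 15.5 and 14.2 to 2.71, 2.02 and 0.0198 CPM in the same order.

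Npr1, the receptor of ANP, ran the other way. It was at 130 CPM (128 to 133) in Arch-GFP and 111 (109 to 113) in Asc-GFP. Asc-RFP followed at 76.9 CPM (74.5 to 79.2), ahead of 46.7 (42.0 to 51.8) in Root-eGFP and 41.4 (39.0 to 44.0) in Root-tdTomato. Each neighbouring pair in this order differed by more than counting error except the 2 root populations. The log2 ratio was -1.25 (-1.40 to -1.09) for Root-eGFP over Asc-GFP and -0.89 (-0.99 to -0.80) for Root-tdTomato over Asc-RFP. Arch-GFP over Root-eGFP gave 1.48 (1.33 to 1.64), which is 2.79-fold. Within the ascending aorta the GFP library was above the RFP library by 0.53 (0.48 to 0.58), and in the root the same contrast was 0.17 (-0.00 to 0.35). Unlike Corin, Npr1 was found in a large share of arch cells. After thinning, 40.3% of Arch-GFP cells held a UMI, against 35.3% in Asc-GFP, 25.5% in Asc-RFP, 17.3% in Root-eGFP and 15.4% in Root-tdTomato. At the deposited depth these shares were 72.5%, 67.7%, 54.7%, 33.7% and 33.1%. Root macrophage-marker cells held one in 13.6% of cells and 10.8% (4.78 to 20.2) after thinning, and those of Asc-RFP, at a median of 2743 UMIs, in 18.03% and 17.4% (4.95 to 38.8). The thinned shares of the 2 root populations and of Asc-RFP lay within the wide intervals of those cells, so only the CPM was read for them. In CPM the macrophage-marker cells held Npr1 at 22.4 (14.3 to 33.3) in Root and 44.3 (25.3 to 71.9) in Asc-RFP. The part of free RNA in the Npr1 levels was not tested. The closest profiles to Npr1 were those of Tes (0.081), Ano2 (0.086), Entpd2 (0.13), Sema3c (0.13) and Ccdc85a (0.13). Tes was at 38.1 CPM in Root-tdTomato and 139 in Arch-GFP.

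Npr2, the CNP receptor, was level. It stood at 33.5 CPM in Root-tdTomato, 32.4 in Asc-RFP, 32.1 in Root-eGFP, 31.9 in Asc-GFP and 31.5 in Arch-GFP. All neighbours in this order overlapped in their intervals, the highest level was 1.06 times the lowest, and the log2 ratios of the 6 comparisons lay between -0.06 and 0.05. The widest of their intervals, for Root-eGFP over Root-tdTomato, ran from -0.27 to 0.14.

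Npr3, the clearance receptor, appeared higher in Root-tdTomato, and endothelial-marker cells carried that excess. Its levels were 18.04 CPM (16.4 to 19.8) in Root-tdTomato, 14.9 (14.2 to 15.7) in Arch-GFP, 13.4 (12.4 to 14.4) in Asc-RFP, 12.9 (12.1 to 13.7) in Asc-GFP and 10.7 (8.50 to 13.3) in Root-eGFP. The first step of this order was larger than counting error, and all later neighbours overlapped. In Root-tdTomato, 159 of 464 Npr3 UMIs (34.3%) lay in 30 endothelial-marker cells, up to 49 in a cell. Summed over all 42 such cells of Root, Npr3 was at 411 CPM (350 to 480), and 12 of these cells held a UMI. The 14 of Asc-RFP held 1 UMI, 6.59 CPM (0.167 to 36.7). Without macrophage- and endothelial-marker cells Root-tdTomato was at 12.2 CPM (10.9 to 13.7), Root-eGFP at 10.7 and Asc-RFP at 13.5. The log2 ratio of Root-tdTomato over Asc-RFP was then -0.14 (-0.34 to 0.05) instead of 0.43 (0.26 to 0.60), and that of Root-eGFP over Root-tdTomato -0.19 (-0.56 to 0.17) instead of -0.75 (-1.11 to -0.41).

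Prkg1, protein kinase G, was also higher in the root, with smaller steps than Corin. It was at 111 CPM (104 to 119) in Root-eGFP, 91.5 (87.9 to 95.3) in Root-tdTomato, 70.4 (68.6 to 72.2) in Asc-GFP, 58.7 (57.2 to 60.2) in Arch-GFP and 57.3 (55.3 to 59.3) in Asc-RFP. Asc-RFP and Arch-GFP overlapped, and the other neighbours did not. The root exceeded the ascending aorta by nearly the same log2 ratio in either colour, 0.68 (0.60 to 0.75) for tdTomato and 0.66 (0.56 to 0.77) for eGFP. In both segments the GFP cells were higher, by 0.28 (0.17 to 0.40) in the root and 0.30 (0.23 to 0.36) in the ascending aorta.

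Pde5a, which degrades cGMP, varied least after Npr2. It was at 181 CPM (178 to 183) in Arch-GFP, 160 (157 to 163) in Asc-GFP, 158 (149 to 167) in Root-eGFP, 146 (143 to 149) in Asc-RFP and 136 (131 to 140) in Root-tdTomato. Asc-GFP and Root-eGFP overlapped. The highest level was 1.33 times the lowest, and within a segment the GFP cells were above the others, by 0.22 (0.13 to 0.32) in the root and 0.13 (0.09 to 0.17) in the ascending aorta.

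**Figure D3:**
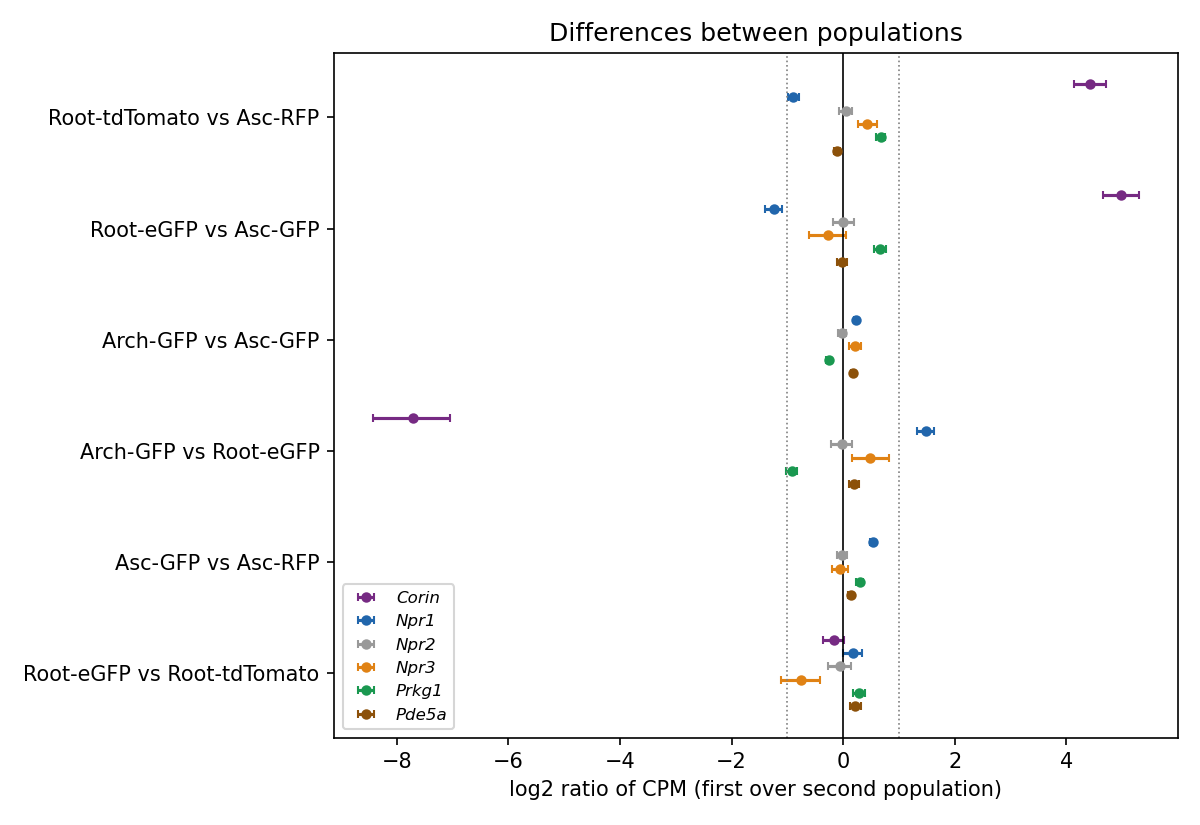
Log2 ratios of CPM for the measured members in the 6 comparisons, with exact conditional binomial 95% intervals (counting error only) and dotted lines at 2-fold. Corin lies at 4.42 and 4.98 for root over ascending aorta and at -7.71 for arch over root, Npr1 lies on the opposite side of 0, and the other members stay within 2-fold.

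Few members lay 2-fold apart, counting those with at least 5 CPM in either population as measured. In Root-tdTomato against Asc-RFP 1 of 6 measured members was at least 2-fold higher, Corin, and none lower, where 2.13% of all genes were higher and 0.870% lower, 3.00% in all. In Root-eGFP against Asc-GFP 1 of 6 was higher, Corin, and 1 lower, Npr1, where 1.07% of genes were higher and 0.903% lower, 1.97% in all. In Arch-GFP against Root-eGFP the sides were reversed, Npr1 higher and Corin lower, where 2.29% of genes were higher and 1.58% lower, 3.87% in all. Between the colours and between arch and ascending aorta no member reached 2-fold. In Root-eGFP against Root-tdTomato it was 0 of 6, where 0.304% of genes were higher and 1.91% lower, 2.21% in all. In Arch-GFP against Asc-GFP it was 0 of 5, where 0.771% were higher and 0.144% lower, 0.914% in all. In Asc-GFP against Asc-RFP it was 0 of 5, where 0.360% were higher and 0.916% lower, 1.28% in all. These comparisons share populations, and the members were chosen with earlier results known, so nothing was read from the counts.

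Within the root, the cells that held Corin held little Npr1. Among 1797 thinned Root-tdTomato cells, 196 held a Corin UMI and 1601 did not. Npr1 was at 10.2 CPM in the first (8 UMIs) and 49.0 CPM in the second (314 UMIs), a log2 ratio of -2.26 (-3.49 to -1.27). In the 71 cells with 2 or more Corin UMIs, Npr1 had 0 UMIs. The same held in Root-eGFP, which the choice of cells in Root-tdTomato did not use: 1 Npr1 UMI in 52 cells with Corin, 4.81 CPM, and 131 in 519 cells without, 63.1 CPM, a log2 ratio of -3.71 (-9.03 to -1.21). This Root-eGFP ratio was not split by sex. A Corin UMI lay in 30.2% of thinned male Root-eGFP cells and 4.64% of female ones. Npr1 was at 16.3 CPM in male and 52.5 CPM in female Root-eGFP cells. Leaving out macrophage- and endothelial-marker cells gave -2.27 (-3.49 to -1.27) in Root-tdTomato, and female cells alone gave -2.24 (-3.70 to -1.10). The other members were close to even there: Npr2 was at 35.9 and 32.3 CPM, Prkg1 at 97.4 and 95.7, and Pde5a at 127 and 140, each with an interval of the ratio that included 0. Npr3 had 2 UMIs (2.56 CPM) in cells with Corin and 90 (14.7 CPM) in those without, with a ratio of -2.52 (-5.58 to -0.62), but in Root-eGFP 3 and 24 UMIs gave 14.4 and 11.6 CPM. Over all cells 2 of 5 members, Npr1 and Npr3, were at least 2-fold lower and 0 higher, where 1.70% of the 6069 genes reaching 20 CPM in either were lower and 1.45% higher. Npr1 and Npr3 reached 20 CPM only in the cells without Corin, Npr3 at 20.5 against 3.83 CPM. At 14.7 CPM without marker cells Npr3 did not reach it, so nothing was read from this count. These are cells of 1 library, not replicates.

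**Figure D4:**
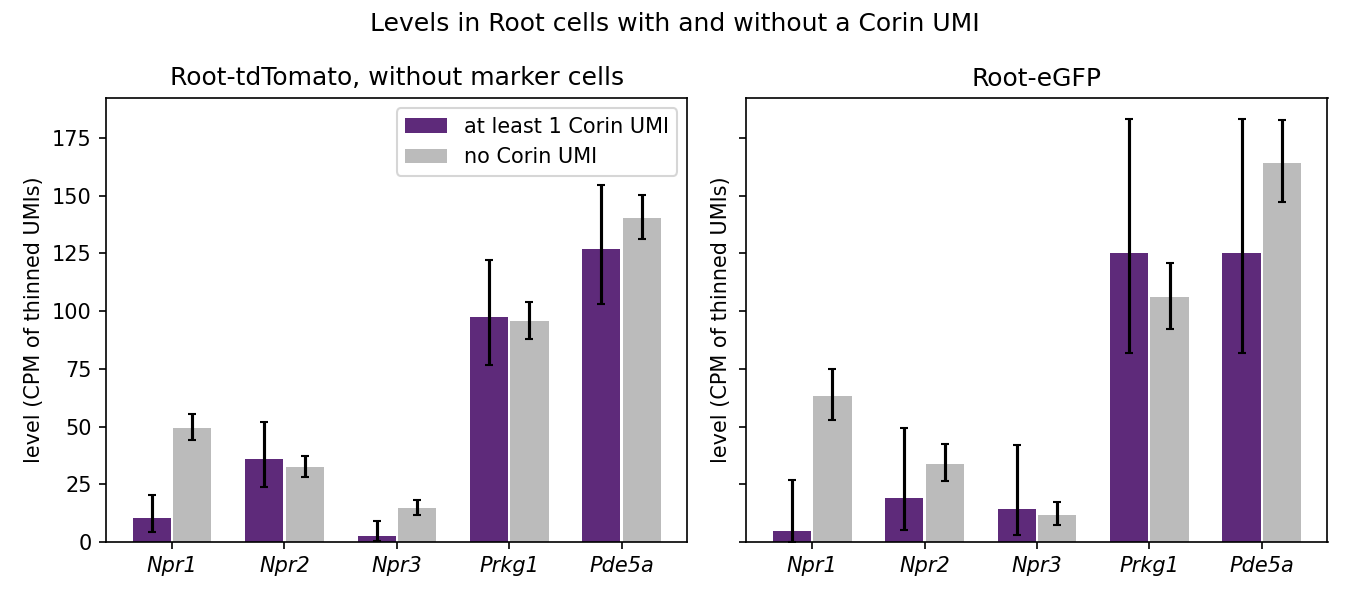
Levels of the other 5 members, in CPM of thinned UMIs with exact Poisson 95% intervals, in cells with at least 1 Corin UMI (purple) and with none (grey), for Root-tdTomato without macrophage- and endothelial-marker cells and for Root-eGFP. Npr1 is at 10.3 against 49.4 CPM in the first panel and 4.81 against 63.1 CPM in the second, and Npr2, Prkg1 and Pde5a overlap.

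Other genes set the Corin cells apart as well. Without macrophage- and endothelial-marker cells, 6011 genes were ordered by whichever end of the interval lay nearer 0, and the highest in Root-tdTomato were Olfr558 (3.90), Pgam2 (3.06), S1pr3 (3.65), Igf1 (3.39), Tmem215 (2.80), Pgf (2.81), Igfbp5 (2.32) and Kcnk3 (2.45), given as log2 ratios. They include a sphingosine-1-phosphate receptor (S1pr3), growth factors (Igf1, Pgf), an IGF-binding protein (Igfbp5) and a potassium channel (Kcnk3). The lowest were Igfbp2 (-5.13), Mfap5 (-2.67), Scx (-4.43), Wif1 (-2.23), Npr1 (-2.27), Mylk4 (-1.57), Sphkap (-2.00) and Postn (-1.28), among them matrix genes (Mfap5, Postn), the tendon transcription factor Scx and the WNT inhibitor Wif1. Pgam2 and Tmem215 also stood among the 5 genes most like Corin across populations. In Root-eGFP, not used for this ranking, 6 of the 8 higher genes had an interval above 0, from 2.58 for Kcnk3 to 4.48 for Igfbp5. The exceptions were Igf1, at 1 and 2 UMIs, and Tmem215 (0.82, -1.60 to 2.61). All 8 lower genes were lower there too, with intervals below 0. The share of all 6011 genes with such intervals in Root-eGFP is not given here, so nothing was read from these counts. The Root-tdTomato and Root-eGFP readings both pool female and male cells of 1 library. In Root-tdTomato without marker cells, 134 female and 47 male cells held Corin, and 1317 and 149 did not. The part of sex or animal in these genes was not tested. The matrix genes Lum and Dcn were also read over all thinned Root-tdTomato cells. There Lum was higher in the Corin cells, at 75.3 against 36.2 CPM (1.05, 0.62 to 1.47). Without marker cells it was at 70.5 and 36.7 CPM (0.94, 0.49 to 1.37), but male cells alone had 1 and 12 UMIs (-1.92, -7.34 to 0.84). Dcn was at 128 and 156 CPM (-0.29, -0.61 to 0.00) over all cells and at 82.1 and 99.9 CPM (-0.28, -0.68 to 0.09) without marker cells. Of the latter, female cells had Dcn at 112 and 101 CPM (0.15, -0.26 to 0.54). Male cells had 1 and 69 UMIs of it (-4.44, -9.77 to -1.92). All thinned Root-tdTomato cells were also binned by the UMIs of both genes. Corin was at 46.1 CPM (40.9 to 51.8) in cells with no thinned UMI of either, 47.5 (32.9 to 66.4) with 1 to 3 and 57.2 (34.5 to 89.4) with 4 or more.

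Corin also differed between female and male cells of the root. Root-tdTomato female cells (1505) were at 37.6 CPM (35.1 to 40.4) and male cells (225) at 105 CPM (93.7 to 117). Root-eGFP female cells (477) were at 16.2 CPM (13.2 to 19.6) and male cells (64) at 177 CPM (149 to 209). Thinned shares with a UMI were 9.08% and 21.9% in Root-tdTomato, and 4.64% and 30.2% in Root-eGFP. Male cells were thus higher in either colour, and the colours differed in opposite directions in the sexes. Npr1 was lower in male than in female root cells, at 21.1 against 45.1 CPM in Root-tdTomato and 16.3 against 52.5 CPM in Root-eGFP. In Arch-GFP Npr1 was at 130 CPM in either sex, in Asc-GFP at 113 CPM in female and 107 in male cells, and in Asc-RFP at 83.6 and 68.9. The sexes come from different animals of unknown number, so sex and animal cannot be told apart. Root stayed far above the ascending aorta within each sex: the log2 ratio of Root-tdTomato over Asc-RFP was 4.44 (4.01 to 4.91) in female and 5.29 (4.89 to 5.72) in male cells, and that of Root-eGFP over Asc-GFP 3.33 (2.89 to 3.77) and 7.85 (7.10 to 8.69). For Npr1 the same ratios were -0.89 and -1.71, and -1.11 and -2.71.

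**Figure D5:**
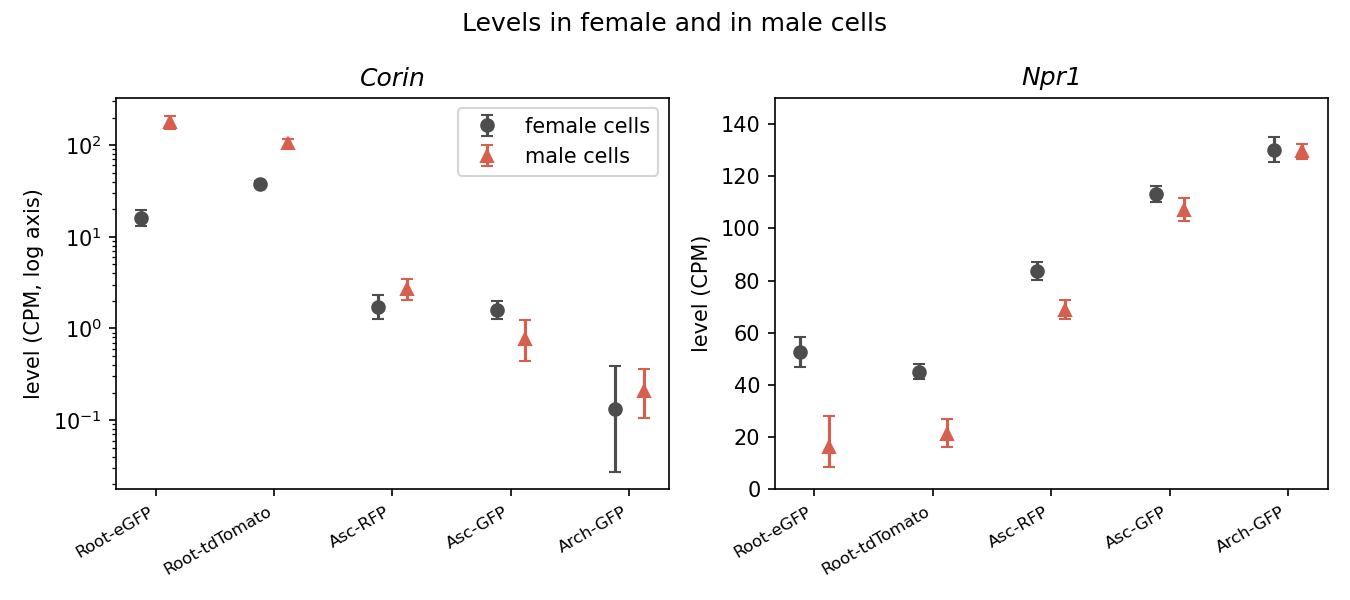
Levels of Corin (log axis) and Npr1 (linear axis) in female and in male cells of the 5 populations, in CPM with exact Poisson 95% intervals. In the root male cells have more Corin (177 and 105 CPM against 16.2 and 37.6) and less Npr1, and in Arch-GFP Npr1 is at 130 CPM in each.

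Of 18 genes of cGMP synthesis, breakdown and export, 6 were measured in Root-tdTomato against Asc-RFP, of which 0 were at least 2-fold higher and 1 lower, with a median log2 ratio of 0.12 against 0.01 over all genes, of which 2.13% were higher and 0.870% lower. The lower gene was Pde1c, a calcium-activated phosphodiesterase (4.47 against 13.7 CPM, -1.61). In Root-eGFP against Asc-GFP none of 7 passed 2-fold, where 1.07% of all genes were higher and 0.903% lower. The median there was 0.22 against -0.01, and Pde1c was at 8.87 and 14.3 CPM. Gucy1a1, a subunit of the nitric oxide receptor guanylyl cyclase, was at 714 CPM in Root-eGFP, 652 in Root-tdTomato, 465 and 452 in the GFP and RFP libraries of the ascending aorta, and 337 in Arch-GFP. It was the 1 of 7 measured that was at least 2-fold lower in Arch-GFP than in Root-eGFP (-1.08, -1.13 to -1.04), where the list's median was -0.44 against 0.05 over all genes and 1.58% of all genes were lower. The soluble cyclase subunit Gucy1a1 and the kinase Prkg1 were thus both highest in the root, while the ANP receptor was lowest there.

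Of 20 targets and effectors of protein kinase G, all in the files (Irag1 under its older name Mrvi1), 18 were measured. In each root against ascending comparison 1 was at least 2-fold higher, Pln, and none lower, with medians of -0.04 in tdTomato and -0.02 in eGFP cells, where 2.13% and 1.07% of all genes were higher. Pln was at 106 CPM in Root-tdTomato and 31.7 in Asc-RFP (1.75, 1.66 to 1.84). In GFP cells it was at 92.3 CPM in Root-eGFP and 18.6 in Asc-GFP (2.31, 2.18 to 2.44), and at 12.9 in Arch-GFP. It also stands in the cardiomyocyte marker list. Among 8 genes of peptide processing and clearance, 4 were measured and 0 passed 2-fold in any of the 6 comparisons. Of all genes, 0.914% to 3.87% did so, depending on the comparison. Pcsk6, which activates corin, was at 9.33 CPM in Root-tdTomato, 7.82 in Root-eGFP, 5.58 in Asc-RFP, 5.24 in Asc-GFP and 3.96 in Arch-GFP. Its log2 ratio was 0.74 (0.49 to 0.99) for Root-tdTomato over Asc-RFP and 0.58 (0.16 to 0.97) for Root-eGFP over Asc-GFP. Furin, a general proprotein convertase, lay between 28.7 and 33.8 CPM, and Ide, which degrades natriuretic peptides and insulin, between 33.4 and 36.3 CPM.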

How the data were processed

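The values deposited by the authors are raw UMI counts from 10x 3′ v3.1 libraries, written by Cell Ranger 7.0.0, per the file headers. The submitters' processing notes name mm10 and Seurat 4.3. The strand setting and the use of intronic reads are not given in the sources used here, and genes antisense to a member's exons were at 1.70 CPM or lower. After the submitters' filtering the labels state 1841 cells for Root, 4050 for Asc-GFP, 2450 for Asc-RFP and 4710 for Arch-GFP. The filter used here kept 2960, 6408, 4030 and 8031 of 4040, 8845, 6539 and 10506 barcodes, in that order.

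UMIs were summed per population with Python and scipy. With 1 library per group no test was made. Intervals at 95% are exact: Poisson for levels, conditional binomial for ratios, binomial for shares. A marker cell holds at least 5 UMIs over at least 3 markers of its type. Genes named from the lists were up to 4 of the largest ratios per comparison with at least 5 CPM in either population. The 5 genes most like a member were given where its range reached 1 on the log2 scale. No doublet caller was run: cells with signs of doublets were left out as an alternative. The ratio procedure was tested on simulated data. The members and lists were chosen with earlier results of these data known. Promoter sequences of 9 of 9 members came from RefSeq, and positions on mm10 from GENCODE M21. Alternatives changed the scaling, the cell filter, the marker cells, the sex of cells, the reporter cut-offs, the weight of cells and the filter on low values.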

Additional observations from a re-analysis of the deposited data

Results flagged for a closer look

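Female and male cells of the root moved in opposite directions between reporter colours. The Corin log2 ratio of Root-eGFP over Root-tdTomato was -1.22 (-1.53 to -0.93) in female cells and 0.76 (0.47 to 1.05) in male cells, with intervals for counting error only. The difference was not tested: the cells come from 1 library, male cells numbered 64 in Root-eGFP and 225 in Root-tdTomato, and the number of animals of each sex is not given.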

How the results depend on the processing

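Of the member ratios recomputed under the alternatives, 308 moved by less than their counting interval and 43 by more, 10 of these in female cells alone and 25 in male cells alone. Both counts include ratios of Nppc, which rest on 2 to 4 UMIs in a library outside Root. No ratio of at least 2-fold changed its sign, but smaller ones did, among them Corin between the root colours (0.76 in male cells) and Npr3 in Root-tdTomato over Asc-RFP (-0.14 without marker cells). The number of genes at least 2-fold apart followed the filter on low values. With at least 20 CPM it was 39 in Asc-GFP against Asc-RFP, 26 in Arch-GFP against Asc-GFP, 102 in Root-tdTomato against Asc-RFP, 67 in Root-eGFP against Asc-GFP, 58 in Root-eGFP against Root-tdTomato and 153 in Arch-GFP against Root-eGFP, and with at least 3 UMIs and no CPM filter it was 2029, 1762, 2433, 3289, 2095 and 3846, where 5 CPM gave 124, 89, 297, 192, 218 and 382. The number of members at least 2-fold apart became 3 in place of 1 for Root-tdTomato against Asc-RFP in male cells (Corin, Npr1 at -1.71 and Npr3 at 1.09). For Root-eGFP against Root-tdTomato it became 1 in place of 0 in female cells (Corin at -1.22) and in male cells (Npr3, 7.54 against 28.0 CPM). For Arch-GFP against Root-eGFP it became 3 in place of 2 in female cells (with Prkg1 at -1.02) and in male cells (with Npr3 at 1.01). Npr3 in male Root-eGFP cells rests on 6 UMIs in 64 cells. Shares of cells with a UMI were higher in 30 of 30 cases at the deposited depth and at 8000 UMIs. TMM scaling shifted ratios by at most 0.0331 on the log2 scale. A stricter cell filter gave 4.11 for Corin in Root-tdTomato over Asc-RFP, and leaving out barcodes shared between libraries, chosen after seeing the data, 4.52. Also chosen after seeing the data were the Corin cells without marker cells and by sex: in male cells Npr1 had 1 UMI with Corin and 19 without (-2.58, -7.96 to 0.07). Nppa, Nppb and Nppc were too rare for any order. No paired analysis was possible because the labels give no replicate numbers and each group is 1 library.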
